A study of Mus musculus with 28 samples.

Results

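The Hox genes encode homeodomain transcription factors that lie in 4 clusters, HoxA to HoxD, and all genes whose symbol is Hoxa, Hoxb, Hoxc or Hoxd followed by a number were taken, which gave 39 genes of the 53801 listed in the bulk RNA-seq counts and the same 39 of the 31053 listed in the scRNA-seq data. HoxA held 11 of them at chr6:52155590-52260880, HoxB 10 at chr11:96194316-96368256, HoxC 9 at chr15:102921103-103036852 and HoxD 9 at chr2:74668310-74765142 (mm10, GENCODE vM21). The mice were a model of premature aging in which Zmpste24 (Z24), the protease that matures prelamin A, was deleted in Prx1-Cre lineage cells of the limb mesenchyme. From 20-week-old control and conditional knockout (CKO) mice, Prx1-Ai9+ cells negative for CD31, CD45 and Ter119 were sorted as CD73+ growth plate skeletal stem and progenitor cells (gpSSPCs) and as Sca1+ periosteal ones (pSSPCs), with 3 RNA-seq and 3 ATAC-seq libraries for each of the 4 groups. Single cells came from 1 library each of sorted Ai9+ cells of Osx-Cre and of Prx1-Cre mice at 8 weeks, and of control (PrxCre; Z24fl/+) and CKO (PrxCre; Z24fl/fl) mice at 16 weeks. The bulk samples all carried the genotype label PrxCre; Z24fl/fl and only their titles separated ctrl from cko, and the 8-week libraries were labelled with Z24fl/fl although the methods of the study describe Cre and the Ai9 reporter alone for them. An RNA library was made from 1000 sorted cells, so neither the number of mice behind it nor the cell types within a gate were measured separately.

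Hox proteins bind DNA with cofactors of the Pbx, Meis and Pknox families and set position along the body axis and along the limb. Within a cluster the genes lie in the order in which they act, from group 1, used towards the head, to group 13, used towards the tail and the tip of the limb, and genes of the same group in different clusters are paralogues. In the limb, groups 9 and 10 are known for the upper segment, group 11 for the middle segment and group 13 for the hand and foot. Adult skeletal cells are known to keep a regional Hox status set in the embryo, in which silent clusters are held by Polycomb complexes and active ones by Trithorax complexes such as Kmt2a.

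Start-site sequence was at hand for 24 promoters of 22 of the 39 genes (RefSeq, GRCm38.p6). Shown are 3 that differ in the number of ATAC-seq libraries with a peak over the promoter. They are the 250 bases before the start, 5′ to 3′ on the gene's strand, with every CpG in capitals. A peak over the promoter was called in 12 of 12 ATAC-seq libraries at Hoxd10, in the 3 pSSPC CKO libraries alone at Hoxa5, and in 0 of 12 at Hoxb4. Hoxb4 did have a peak within 1000 bases of its start in 7 of 12 libraries. These peaks lay in chr11:96318373-96320265, past the start and outside the stretch shown.
Hoxd10, chr2:74691641-74691890, plus strand: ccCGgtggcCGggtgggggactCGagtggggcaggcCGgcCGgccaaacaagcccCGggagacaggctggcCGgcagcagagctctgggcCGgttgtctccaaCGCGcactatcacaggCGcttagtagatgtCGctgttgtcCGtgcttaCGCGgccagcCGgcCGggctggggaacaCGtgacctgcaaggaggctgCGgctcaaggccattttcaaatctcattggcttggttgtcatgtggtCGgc
Hoxa5, chr6:52204588-52204837, minus strand: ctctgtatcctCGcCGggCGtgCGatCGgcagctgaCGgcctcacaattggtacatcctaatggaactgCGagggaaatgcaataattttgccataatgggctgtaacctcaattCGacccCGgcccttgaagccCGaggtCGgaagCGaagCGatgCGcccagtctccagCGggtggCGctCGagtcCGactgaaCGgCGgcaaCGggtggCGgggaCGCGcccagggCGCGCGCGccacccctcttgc
Hoxb4, chr11:96318017-96318266, plus strand: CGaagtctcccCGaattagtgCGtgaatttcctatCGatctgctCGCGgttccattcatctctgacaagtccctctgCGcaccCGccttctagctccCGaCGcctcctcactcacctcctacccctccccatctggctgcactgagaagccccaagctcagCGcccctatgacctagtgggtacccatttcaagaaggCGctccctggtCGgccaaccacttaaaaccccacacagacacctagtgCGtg
The 3 stretches held 20, 28 and 14 CpGs, respectively. The 24 Hox promoters held a median of 12.5 CpGs (range 2 to 35), against a median of 6 (quartiles 2 and 16) over 32851 promoters of the same length. The homeodomain core TAATTA, which reads the same on both strands, was in 2 of the 24, both of them promoters of Hoxd11, and in 4.84% of all promoters.

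The sorted cells were checked against marker genes before the Hox genes were read. Summed chondrocyte markers (9 genes, Col2a1 most abundant) lay at 4980 to 10064 CPM (counts per 1000000 counts of the library, scaled by TMM) in pSSPCs and 18880 to 43734 in gpSSPCs, and osteoblast (OB) markers (7 genes, Ibsp most abundant) at 5764 to 16144 and 23707 to 60605. Periosteal mesenchymal stem cell (PMSC) markers (9 genes, Prg4 most abundant) lay at 22646 to 46562 CPM in pSSPCs and 8551 to 33616 in gpSSPCs. The chondrocyte and OB sums did not overlap between the populations, whereas the PMSC sums did. In sums chosen after the data were seen, without Prg4, which ran from 1203 to 24138 CPM within gpSSPCs, the PMSC sums lay at 15452 to 29897 in pSSPCs and 7068 to 9477 in gpSSPCs and did not overlap, and 6 of the 9 genes were lower in all gpSSPC samples than in any pSSPC sample, beside 4.05% of all genes tested. The genes of the sort markers also separated, with Ly6a (Sca1) at 1164 to 2851 CPM in pSSPCs and 298 to 830 in gpSSPCs, and Nt5e (CD73) at 44.0 to 54.4 and 139 to 323. Erythroid markers (6 genes, Hbb-bs most abundant) ranged from 17.6 to 6280 CPM and followed the replicate number, with 17.6 to 152 in the replicate 1 libraries and 1185 to 6280 in the others. Pericyte markers lay at 195 to 283 CPM in pSSPCs and 81.9 to 158 in gpSSPCs, endothelial markers at 119 to 183 and 42.8 to 118, tenocyte markers at 202 to 417 and 234.9 to 384, and bone marrow stromal cell (BMSC) markers at 583 to 1150 and 342 to 740. Myeloid, muscle, Schwann and skin markers were at most 36.7, 70.7, 27.9 and 58.7 CPM, with Myod1, Pax7 and Krt5 at 0 throughout. The part of these cell types in any Hox difference was not tested, and in bulk RNA fewer cells of a type cannot be told apart from less RNA per cell.

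The RNA libraries held 1333260 to 5315709 counts, of which 428 to 2194 were Hox counts from 16 to 27 Hox genes. Replicates 2 and 3 of each group differed by less than the sampling noise for genes of 5 to 99 counts (chi-square over its degrees of freedom 0.82 to 0.98), while each differed from replicate 1 at 10.1 to 13.1. For genes from 20 counts up, the value was 1.59 to 1.92 between replicates 2 and 3 and 53.2 to 71.5 against replicate 1, so the well-expressed genes did differ slightly more than by sampling. Over the Hox genes alone it was 0.53 to 0.95 between replicates 2 and 3, which were summed and counted as 1 sample, which left 2 samples a group and 8 in all. No label says that the replicates came from separate animals, so that p-values measure only the spread between these samples. Of the 39 genes, 16 passed the filter on low counts and were tested, 13 had counts but did not pass it (highest group mean 7.82 CPM, Hoxd13), and 10 had no count in any of the 12 libraries. These 10 were Hoxb1, Hoxb6, Hoxb8, Hoxb13, Hoxc12, Hoxc13, Hoxd1, Hoxd4, Hoxd11 and Hoxd12.

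HoxC and HoxA carried most Hox RNA of both populations, HoxD 4.42% to 14.95% of it and HoxB at most 1.45%. HoxC summed to 126 to 205 CPM in pSSPCs and 194 to 292 in gpSSPCs, which was 45.5% to 60.4% of all Hox counts of a sample. HoxA summed to 134 to 138 CPM in pSSPCs and 132 to 203 in gpSSPCs, HoxD to 12.1 to 52.7 and 26.4 to 50.4, and HoxB to 0 to 5.83 and 0 to 3.30. The HoxC sums overlapped between pSSPCs (highest 204.7) and gpSSPCs (lowest 193.9), as did those of the other clusters.

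**Figure D1:**
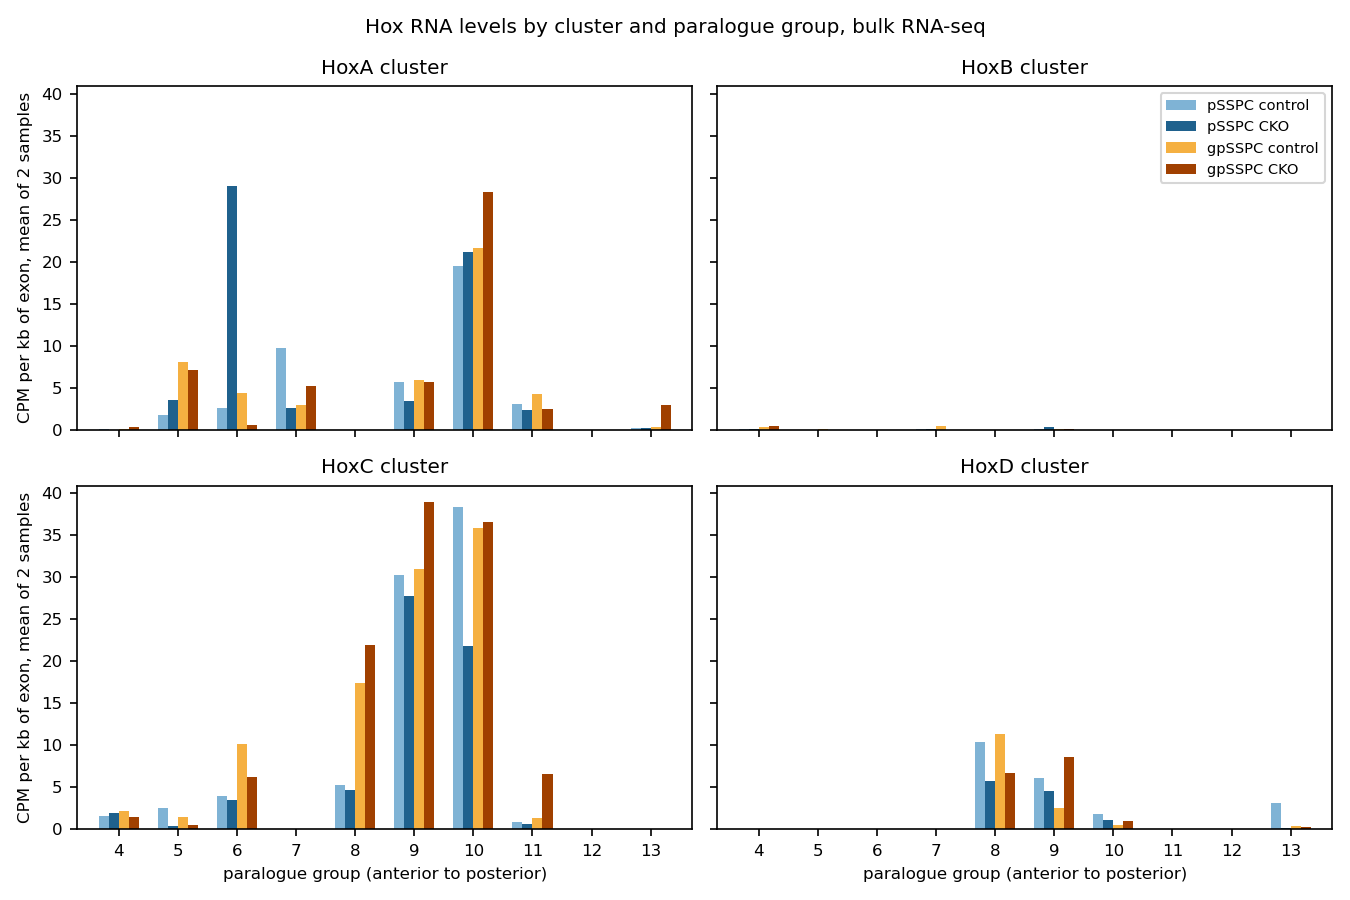
Mean level of the Hox genes of paralogue groups 4 to 13 (x axis) in CPM per kb of exon (y axis), with 1 panel per cluster and 1 bar per group of 2 samples. Groups 5 to 10 of HoxA, groups 6 to 10 of HoxC, and Hoxd8 and Hoxd9 carry the signal, and HoxB is close to 0.

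Per kb of exon, genes of groups 8 to 10 stood highest in control. In control gpSSPCs the levels were 35.9 CPM per kb for Hoxc10, 31.025 for Hoxc9, 21.6 for Hoxa10, 17.4 for Hoxc8, 11.4 for Hoxd8 and 10.1 for Hoxc6. In control pSSPCs they were 38.3 for Hoxc10, 30.3 for Hoxc9, 19.5 for Hoxa10, 10.4 for Hoxd8, 9.67 for Hoxa7, 6.04 for Hoxd9, 5.66 for Hoxa9 and 5.20 for Hoxc8. Hoxc9, Hoxc10 and Hoxa10, paralogues of groups 9 and 10, thus led in both control groups, and with an SD of 51.7 CPM on a mean of 73.6 CPM for Hoxc9 in control pSSPCs their order among themselves did not exceed the spread of samples. They also led in CKO gpSSPCs (38.96, 36.5 and 28.3), while in CKO pSSPCs Hoxa6 had the highest mean, 29.04, from 1 of its 2 samples, before Hoxc9 (27.8), Hoxc10 (21.8) and Hoxa10 (21.1). The scale assumes that reads cover the whole transcript. The study names a modified SmartSeq2 protocol with duplicate reads removed by molecular barcode (UMI), and does not state that coverage. The terminal genes of the clusters, groups 12 and 13, reached more than 1.68 CPM in a single sample each of Hoxa13 (14.2, CKO gpSSPC replicate 1) and Hoxd13 (15.6, control pSSPC replicate 1).

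Hoxc8, a gene of the thoracic level in the middle of HoxC, was the tested Hox gene that stood apart most clearly between the populations. In pSSPCs its level was 15.6 and 13.8 CPM in control and 11.1 and 15.5 in CKO (replicate 1 and the summed replicates 2 and 3). In gpSSPCs it was 41.6 and 56.8 CPM in control and 87.6 and 36.3 in CKO. All 4 gpSSPC samples were above all 4 pSSPC samples. The log2 fold change of gpSSPCs over pSSPCs was 1.74 (SE 0.68, edgeR adjusted p = 0.707) in control and 2.1997 (SE 0.69, adjusted p = 0.815) in CKO, so Hoxc8 did not pass the test across genes.

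No gene of the transcriptome passed at an adjusted p of 0.05 in this fit by edgeR's quasi-likelihood test (0% of 13173 genes in either genotype), and so no Hox gene did. At an unadjusted p under 0.05 stood 815 genes in control and 568 in CKO, of which Hox genes made up 1 (Hoxc8) and 2 (Hoxc8 and Hoxa6). DESeq2 called 72 genes higher and 163 lower in gpSSPCs in control, and 73 and 29 in CKO, with 0 of the 9 Hox genes to which it gave an adjusted p (8127 genes in all). With the replicate number as a block, 476 genes (3.61%) were called in control and 311 (2.36%) in CKO, again with 0 Hox genes, and Hoxc8 had an adjusted p of 0.198 and 0.127 (edgeR). With all 12 libraries counted as samples, which treats the near-identical replicates 2 and 3 as independent, 559 genes (4.54%) and 365 (2.96%) were called, and Hoxc8 was the 1 Hox gene among them in either genotype (edgeR adjusted p = 0.0272 and 0.0276). With the block added to that, 16.8% of all genes were called in control and 12% in CKO, and 2 of 16 Hox genes (12.5%) in each, which was not above the share of all genes in control and near it in CKO.

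**Figure D2:**
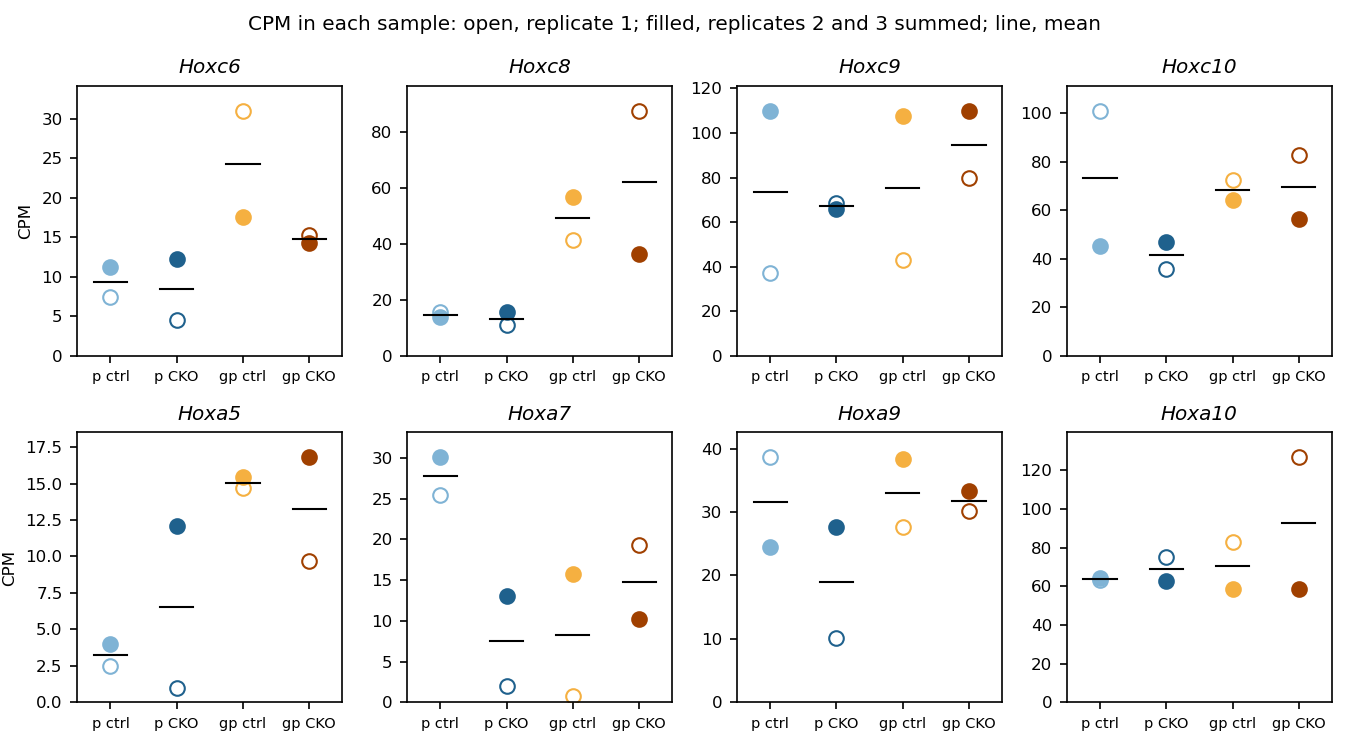
Level in CPM (y axis) of 8 Hox genes in each sample, by population and genotype (x axis), with replicate 1 as open and the summed replicates 2 and 3 as filled points and the mean as a line. Hoxc8 and Hoxc6 separate gpSSPCs from pSSPCs in all 4 samples each, and over those samples Hoxa10, Hoxc9 and Hoxc10 overlap.

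Hoxc6, the neighbour of Hoxc8 on the 3′ side, was the other Hox gene with no overlap. It lay at 7.40 and 11.3 CPM in control and 4.55 and 12.3 in CKO pSSPCs, and at 31.1 and 17.6 in control and 15.4 and 14.3 in CKO gpSSPCs. Its log2 fold change was 1.36 (SE 0.95, edgeR adjusted p = 1.00) in control and 0.79 (SE 0.94, adjusted p = 1.00) in CKO. The CKO value ran from 0.25 to 0.88 with any 1 library left out. By this count, chosen after the data were seen, 2 of the 16 tested Hox genes had all 4 gpSSPC samples above all 4 pSSPC samples, beside 4.25% of the 13173 genes tested, and 0 of 16 had them all below, beside 4.05%.

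Hoxa5, a gene of the group used at neck and shoulder level, was at 2.47 and 4.01 CPM in control pSSPCs, 1.01 and 12.1 in CKO pSSPCs, 14.7 and 15.4 in control gpSSPCs and 9.67 and 16.8 in CKO gpSSPCs. The control samples did not overlap and the CKO samples did, while within each of the 4 same-numbered pairs the gpSSPC sample was the higher. By this count, added after the data were seen, 3 of the 16 tested Hox genes (Hoxa5, Hoxc6 and Hoxc8) were higher in gpSSPCs in 4 of 4 pairs, beside 12.2% of all genes tested, and 0 were lower, beside 12.4%. With the replicate block the edgeR adjusted p of Hoxa5 was 0.362 in control and 0.728 in CKO. The log2 fold change was 2.18 (SE 1.32, edgeR adjusted p = 0.947) in control and 0.98 (SE 1.26, adjusted p = 1.00) in CKO. With any 1 library left out, the CKO value of Hoxa5 ran from 0.13 to 1.36.

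Over the 4 samples of each population, Hoxc10, Hoxc9 and Hoxa10, the leading genes of groups 9 and 10, overlapped. Within CKO alone, the 2 gpSSPC samples of Hoxc9 (79.6 and 109.7 CPM) and of Hoxc10 (83.0 and 56.4) were above the 2 pSSPC samples (68.8 and 66.1, and 35.9 and 47.1), and within control they overlapped. By this count of 2 samples against 2, added after the data were seen, both gpSSPC samples were above both pSSPC samples for 3 of 16 Hox genes in control (Hoxa5, Hoxc6 and Hoxc8; 16.4% of all genes) and 5 in CKO (Hoxa9, Hoxc6, Hoxc8, Hoxc9 and Hoxc10; 13.6%). They were below for 1 in control (Hoxa7; 14.4%) and 1 in CKO (Hoxa6; 14.9%). Hoxa10 ran from 62.5 to 75.4 CPM in pSSPCs and from 58.5 to 127 in gpSSPCs, with a log2 fold change of 0.14 (SE 0.55) in control and 0.42 (SE 0.55) in CKO. Hoxc9 ran from 37.0 to 110 CPM and from 43.2 to 110, and its fold change was 0.03 (SE 0.65) and 0.49 (SE 0.66). Hoxc10 ran from 35.9 to 101 CPM in pSSPCs and 56.4 to 83.0 in gpSSPCs, with a log2 fold change of -0.09 (SE 0.57) in control and 0.74 (SE 0.58) in CKO. A p above the threshold does not show that these levels are equal.

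Several further HoxA, HoxC and HoxD genes varied most between replicates of the same group. Hoxa6 was at 46.6 CPM in replicate 1 of CKO pSSPCs and at 0.364 to 4.28 in the remaining 7 samples, and its log2 fold change in CKO was -5.56 (SE 1.88, edgeR adjusted p = 0.894) with that sample and -2.99 without it. Hoxc11 was at 25.03 CPM in replicate 1 of CKO gpSSPCs and at most 4.40 elsewhere. Hoxd9 was at 1.65 and 24.2 CPM in the 2 control pSSPC samples and at 27.9 and 8.64 in the 2 CKO gpSSPC samples. Hoxa7 spanned 0.839 to 30.1 CPM, Hoxa9 10.1 to 38.7 and Hoxd8 9.62 to 46.6. Over the 4 samples of each population these 6 genes overlapped. Within control, Hoxa7 was at 25.5 and 30.1 CPM in pSSPCs and at 0.839 and 15.8 in gpSSPCs, without overlap. Hoxa7 shares 20.4% of its exonic bases with the antisense gene Hoxaas3, and Hoxc10 shares 8.7% with Hoxc5, and the sources used here do not state whether counting used strand.

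Over the 16 tested genes, 11 had a log2 fold change above 0 in control and 13 in CKO. Their median was 0.14 and 0.61, beside -0.03 in either genotype over all genes tested. Without replicate 1 of CKO pSSPCs, the CKO median was 0.13 over 23 Hox genes, 13 of them above 0. With any 1 library left out the control median ran from 0.13 to 0.38, the highest without replicate 1 of control gpSSPCs. Fits without a replicate 1 let 22 or 23 Hox genes through the filter, so their medians are not of the same 16 genes. The control and the CKO comparison share no samples, but they come from 1 fit. Same-numbered libraries also deviated together across the genotypes (r 0.555 to 0.604), so the 2 comparisons are not independent.

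Zmpste24, the deleted gene, was at 0.823 and 16.4 CPM in control pSSPCs, 0 and 7.44 in CKO pSSPCs, 4.62 and 15.7 in control gpSSPCs and 1.14 and 7.86 in CKO gpSSPCs. Within each replicate number the CKO sample was the lower, but the log2 fold change of -1.14 (SE 1.93) in gpSSPCs and -1.19 (SE 1.92) in pSSPCs was well within its error. The counts cover the whole gene, while loxP sites flank a single exon, so they are a weak check of the deletion.

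Between CKO and control, no Hox gene stood out in either population. edgeR called 0 of 13173 genes (0%) in gpSSPCs and in pSSPCs, DESeq2 called 0 in each, and 29 and 277 genes, 0 of them Hox genes, had an unadjusted edgeR p under 0.05. Under the replicate block 8 genes (0.0607%) and 13 (0.0987%) were called, with 0 Hox genes. The log2 fold change was above 0 for 8 of 16 Hox genes in gpSSPCs (median -0.02, all genes -0.00) and 4 of 16 in pSSPCs (median -0.40, all genes -0.03). Without replicate 1 of control gpSSPCs the gpSSPC median was -0.19 over 23 Hox genes, 9 of them above 0. Without replicate 1 of control pSSPCs, which is not part of this contrast, it was 0.17 over 22 Hox genes, 12 of them above 0. Each fit without a replicate 1 let 22 or 23 Hox genes through the filter instead of 16. Such medians are therefore of a different gene set. The pSSPC median moved with single libraries, to 0.04 over 23 Hox genes, 12 of them above 0, without replicate 1 of CKO pSSPCs, to -0.24 without replicate 2 of CKO pSSPCs and to -0.19 without replicate 3 of control pSSPCs. Hoxc8 moved by 0.33 in gpSSPCs and -0.13 in pSSPCs, Hoxc10 by -0.80 (SE 0.58) in pSSPCs and Hoxa6, with its 1 high sample, by 3.64 (SE 1.71) in pSSPCs. For the difference between the genotypes in the population effect, edgeR called 0 of 13173 genes (0%), 125 genes including 1 Hox gene (Hoxa6) had an unadjusted p under 0.05, and Hoxc8 stood at a log2 difference of 0.46 (SE 0.94). Under the replicate block 2 genes (0.0152%) and 0 Hox genes were called for that difference.

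The cofactors of Hox proteins were described next, from a list of 9 genes of which 8 were tested and 0 called by edgeR in any contrast. Meis1 lay at 8.10 to 21.9 CPM in pSSPCs and 0.839 to 6.83 in gpSSPCs, and was the 1 of the 8 whose samples did not overlap, beside 4.05% of all genes lower in gpSSPCs by that count. The list summed to 72.4 to 220 CPM in pSSPCs and 57.1 to 90.9 in gpSSPCs, with a median log2 fold change of -0.90 in control and -0.51 in CKO.

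Of 32 limb patterning genes, 31 were listed and 24 tested, and 0 were called by edgeR. Prrx1, the gene whose enhancer drives the Cre, was at 162 to 612 CPM in pSSPCs and 44.5 to 96.4 in gpSSPCs, while Pax1 was at 8.23 to 18.1 and 29.6 to 64.4 and Dlx5, a homeobox gene of cartilage and bone, at 24.4 to 48.5 and 101 to 122. By the count of samples without overlap, added after the data were seen, 2 of the 24 (Pax1 and Dlx5) were higher in gpSSPCs, beside 4.25% of all genes, and 2 (Prrx1 and Prrx2) lower, beside 4.05%. Pitx1, which marks the hindlimb, lay at 67.6 to 164 CPM over all samples, Tbx5, which marks the forelimb, at 0.42 to 16.5, and Tbx4 at no more than 1.35. Shh, Fgf8 and Zic1 were at 0, as were Evx1 and Evx2, the homeobox genes that flank HoxA and HoxD.

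Among 12 long RNAs of the Hox clusters 11 were listed and 4 tested, with 0 called by edgeR, and Hottip, Hoxb5os and Hoxb3os were at 0. Hotairm1, at the start of HoxA, was at 0 to 2.37 CPM in pSSPCs and 2.36 to 4.62 in gpSSPCs. Of 25 Polycomb, Trithorax and related regulators 23 were tested and 0 called, with a median log2 fold change of -0.11 in control and 0.35 in CKO. Their summed level was 995.98 to 1597 CPM in the replicate 1 samples and 729 to 869 in the others, which Kdm6b, a histone demethylase gene, carried at 548 to 1005 CPM and 198 to 287. Without it, a sum likewise chosen after the data were seen, they were 448 to 814 and 516 to 668, and overlapped.

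Chromatin accessibility of the clusters was read from the peaks that the authors called in each ATAC-seq library, over the cluster and 5000 bases on each side. The 12 libraries held 12250713 to 46756821 tags and 59209 to 101606 peaks. HoxB was the cluster that differed. It held 8, 8 and 16 peaks in control pSSPCs and 6, 11 and 18 in CKO pSSPCs, against 7, 3 and 4 in control gpSSPCs and 1, 1 and 4 in CKO gpSSPCs. In number the highest gpSSPC library (7) passed the lowest pSSPC library (6), and once divided by the peaks of the library the populations did not overlap.

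Per 10000 peaks of the library, HoxB held 0.386 ± 0.240 in gpSSPCs and 1.42 ± 0.415 in pSSPCs (SD, n = 6 libraries each). The difference was -1.04 in control and -1.03 in CKO. An exact two-sided permutation test of libraries within genotype gave p = 0.005, the smallest its 400 arrangements allow, and 0.02 after Benjamini-Hochberg adjustment over 16 tests (4 clusters, 4 measures). The number of peaks (3.33 ± 2.25 against 11.2 ± 4.83), the bases covered (897 ± 686 against 4213 ± 3020) and the summed peak height per 1000000 tags (2.34 ± 1.84 against 9.12 ± 2.80) gave the same exact permutation p of 0.005. Peaks covered 0.732% of HoxB in control and 0.243% in CKO gpSSPCs, and 1.65% and 2.93% in pSSPCs. Replicate 3 was the most deeply sequenced library of each group, and in pSSPCs it held the most HoxB peaks.

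**Figure D3:**
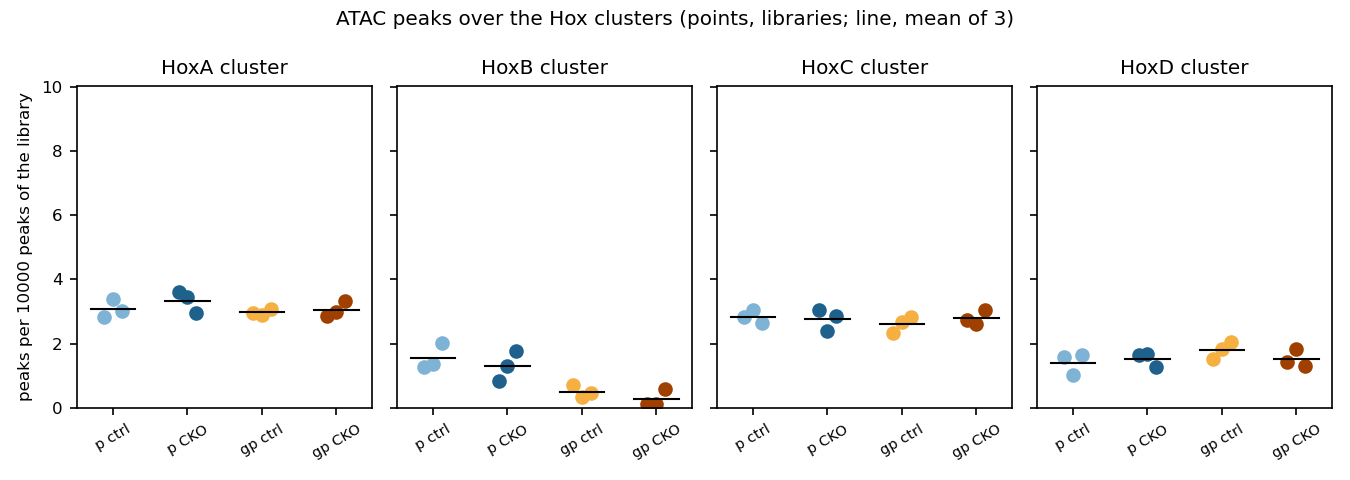
ATAC-seq peaks in each Hox cluster per 10000 peaks of the library (y axis) for the 12 libraries by group (x axis), with the mean of 3 libraries as a line. In HoxB the 6 gpSSPC libraries lie at 0.119 to 0.71 and the 6 pSSPC libraries at 0.829 to 2.01, and in the other clusters the populations overlap.

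Leaving out any of the 3 CKO gpSSPC libraries raised the adjusted p of the HoxB peak count to 0.107, of the covered bases to 0.14 and of the 2 scaled measures to 0.08. Leaving out a control gpSSPC library raised that of the covered bases to 0.06 to 0.1. The HoxB difference kept its sign in each such fit, with -8.87 to -6.47 peaks.

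Over both genotypes together, HoxA, HoxC and HoxD did not pass the test. HoxA held 25.5 ± 2.51 peaks in gpSSPCs and 24.5 ± 4.81 in pSSPCs, HoxC 22.8 ± 2.04 and 21.3 ± 4.08, and HoxD 14.2 ± 3.31 and 11.3 ± 2.94 (SD, n = 6, exact permutation, adjusted p = 0.953, 0.907 and 0.6). The mean difference in the number of peaks changed sign between the genotypes in all 3 clusters. In HoxC the gpSSPC minus pSSPC difference was 5.33 in control and -2.33 in CKO, and in HoxD 7 and -1.33. In control the groups did not overlap in HoxC (23 to 25 against 18 to 21) or HoxD (15 to 18 against 6 to 13), and in CKO they overlapped in both. HoxA held 27 to 29 peaks in control gpSSPCs against 18 to 24 in control pSSPCs, but 23 to 24 in CKO gpSSPCs against 26 to 30 in CKO pSSPCs. Over the genome, libraries held 88095 to 98549 peaks in control gpSSPCs against 59209 to 79724 in control pSSPCs, without overlap, and 68961 to 84100 in CKO gpSSPCs against 72375 to 101606 in CKO pSSPCs, with overlap. With the 59209 strongest peaks of every library, the mean difference in control and CKO was -0.33 and 0.67 in HoxA, -1 and 1.33 in HoxC and 1 and 1.33 in HoxD.

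At annotated start sites (a peak within 1000 bases), 19 of the 39 genes had a peak in all 12 libraries, 5 in none and 15 in some. Among the 19 were Hoxa7, Hoxa9 and Hoxa10, Hoxc8, Hoxc9 and Hoxc10, and Hoxd8, Hoxd9 and Hoxd10, and no HoxB gene was. The 5 without a peak were Hoxa2, Hoxb8, Hoxc6, Hoxc12 and Hoxd12, although Hoxc6 had RNA in every sample (4.55 to 31.1 CPM). Its 1 start site used lies at chr15:103009573. In the body of Hoxc6, the region chr15:102998657-103000279 had a peak in all 12 libraries. Hoxc13 and Hoxd1 were open in every library although neither had an RNA count. Per library, 23 to 30 Hox genes had a start-site peak in pSSPCs and 22 to 26 in gpSSPCs, beside 60.2% to 65.3% of 21864 protein-coding genes.

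Some start sites had peaks in libraries of a single population. Hoxa5 and Hoxb9 had a peak in 6 of 6 pSSPC and 0 of 6 gpSSPC libraries, and Hoxb2 in 5 of 6 and 0 of 6. By this count, chosen after the data were seen, 2 of 39 Hox genes were open in every pSSPC and no gpSSPC library, beside 0.297% of all genes, and 0 the reverse, beside 0.828%. Within 250 bases of the start, 0 Hox genes met it, since Hoxa5 had a peak in 3, Hoxb9 in 4 and Hoxb2 in 1 of 6 pSSPC libraries, with 0 of 6 gpSSPC libraries at each. In the opposite direction, Hoxd4 had one in 0 of 6 pSSPC libraries, in 3 of 3 of control gpSSPCs and in 1 of 3 of CKO gpSSPCs, and Hoxb1 and Hoxb13 each had one in a single CKO gpSSPC library alone. Hoxb5 had a peak in 2 of 3 CKO pSSPC libraries and in none of the others, as did Hoxa6, and Hoxb7 had one in replicate 3 of control and of CKO pSSPCs alone. Hoxa5 RNA, which did not pass the test, was at 1.01 to 12.1 CPM in pSSPCs and 9.67 to 16.8 in gpSSPCs. The promoter printed above for Hoxa5 was covered in the 3 CKO pSSPC libraries by a peak at chr6:52204290-52204739, and a second peak further into the gene, at chr6:52203707-52204197, was called in 3 of 3 control and 2 of 3 CKO pSSPC libraries.

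**Figure D4:**
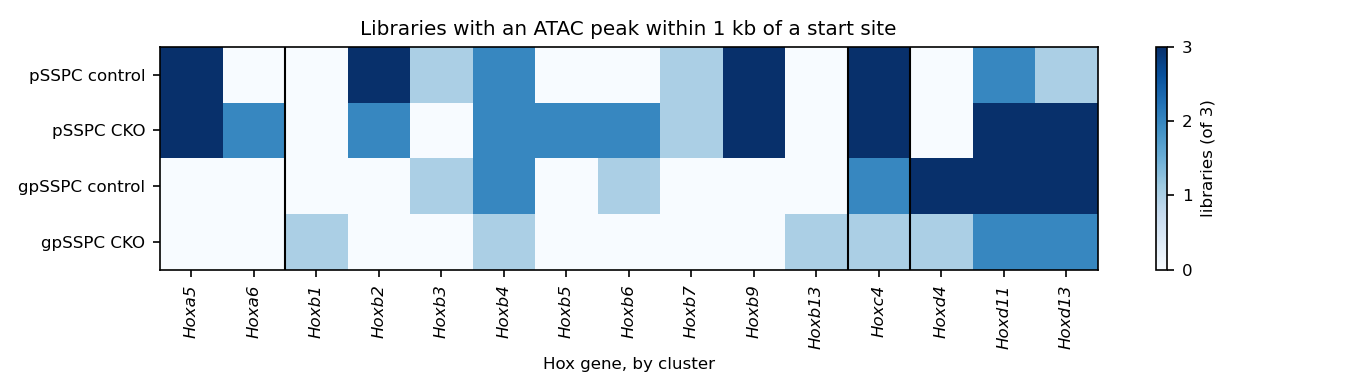
Number of ATAC-seq libraries, of 3 in each group, with a peak within 1000 bases of the annotated start of the 15 Hox genes that had one in some libraries but not in all (genes as columns by cluster, groups as rows, shade from 0 to 3). Hoxa5, Hoxb9 and Hoxb2 are filled in pSSPCs and empty in gpSSPCs, and most HoxB genes are filled in a few libraries only.

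Peaks of the 12 libraries were merged into 176624 regions, of which 115 lay in the Hox clusters. All 12 libraries shared 27 of the 115 (23.5%, genome 14.3%), made up of 10 of 39 in HoxA, 0 of 25 in HoxB, 11 of 33 in HoxC and 6 of 18 in HoxD. No gpSSPC library had a peak in 13 of the 25 HoxB regions (52%), beside 26% of regions of the genome. This share uses the same peaks as the HoxB test above and was not tested itself. Some of the 13 had a peak in 1 pSSPC library alone, as at chr11:96261588-96261883 and chr11:96269995-96270211. Those at chr11:96260299-96260690 and chr11:96286261-96287082 had one only in replicate 3, the deepest library, of control and of CKO pSSPCs. Others had one in more pSSPC libraries, up to 3 of 3 in control and 3 of 3 in CKO (chr11:96271726-96272497). A peak in 3 of 3 gpSSPC and 0 of 3 pSSPC libraries was called at 9 Hox regions in control (7.83%, all regions 13.5%) and at 5 in CKO (4.35%, all regions 6.81%). The converse held at 4 regions in control (3.48%, all regions 4.87%) and 9 in CKO (7.83%, all regions 9.71%), so that none of these shares was above that of the genome.

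Counted over both genotypes, a comparison chosen after the data were seen, 5 of 115 Hox regions had a peak in 6 of 6 gpSSPC and 0 of 6 pSSPC libraries (all regions 6.1%) and 1 had the reverse (all regions 3.6%), which was 4.35% and 0.87% of Hox regions. When a peak had to cover at least 50% of a region, 6 of 115 (5.22%, all regions 4.9%) were in gpSSPCs alone. Of the 5, 2 lay in HoxC. The region chr15:102989421-102989778 (358 bases) lies in the body of Hoxc5 outside exons, its centre 1008 bases from the start of Hoxc8, with a peak height per 1000000 tags of 2.85, 2.44 and 1.21 in control and 3.86, 1.78 and 0.779 in CKO gpSSPCs. The region chr15:103002111-103002472 (362 bases) is intronic in Hoxc5 and Hoxc6, 7282 bases from the start of Hoxc6, with heights of 3.74, 3.83 and 2.14 in control and 5.02, 3.37 and 1.38 in CKO gpSSPCs. In each genotype the height was lowest in replicate 3, the most deeply sequenced library.

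The other 3 gpSSPC regions lay in HoxA. They were chr6:52166618-52167230 over an exon of Hoxaas2, chr6:52201274-52201859 over exons of Hoxa5 (its UTR) and Hoxaas3, 3021 bases from the start of Hoxa5, and chr6:52237836-52238226 in the body of Hoxa10 outside exons, 2823 bases from its start. Their heights per 1000000 tags in gpSSPCs ran from 0.553 to 1.70, from 0.905 to 3.25 and from 1.33 to 3.61. The 1 pSSPC region, chr11:96271726-96272497, overlies coding exon of Hoxb9, 588 bases from its start (lost when peaks had to cover at least 50% of a region or when every library was given 59209 peaks), with low peaks of 0.449 to 1.06 per 1000000 tags.

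Between CKO and control, 0 Hox regions had a peak in all CKO and no control gpSSPC libraries (all regions 0.034%) and 2 the reverse (all regions 0.978%), in the bodies of Hoxc5 and Hoxc9 and of Hoxd11. In pSSPCs, 3 Hox regions had one in all CKO and no control libraries (all regions 1.83%) and 0 the reverse (all regions 0.0776%). Among the former was the Hoxa5 promoter region, with 3 of 3 CKO and 0 of 3 control pSSPC libraries.

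Single cells allowed the Hox genes to be read by cell class. The 4 libraries held 782, 993, 2068 and 2362 cells with at least 200 genes (of 785, 999, 2088 and 2373 barcodes) for Osx-Cre and Prx1-Cre at 8 weeks and control and CKO at 16 weeks, at a median of 926, 1043, 1428 and 1274 UMIs. They shared at most 10 barcodes pairwise. The methods of the study give 2068 cells to the Z24fl/fl mice and the larger number to Z24fl/+, the reverse of the labels used here. The study also reports lower percentages of chondrocyte-like cells and PMSCs in Z24fl/fl mice, and the cell numbers below run that way under the labels. An exchange of the labels was not tested. Hox genes summed to 408, 367, 469 and 465 CPM, from 424, 571, 1692 and 1628 UMIs. There is 1 library per condition, so there is no test between conditions, and the 95% exact Poisson intervals below cover counting error only.

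Clusters were named from markers, with Hox genes kept out of the clustering, as chondrocyte-like (74, 161, 60 and 21 cells in the 4 libraries, same order), PMSC-like (72, 161, 63 and 29), OB-like (63, 73, 185 and 178) and BMSC-like (550, 569, 1662 and 2048). At 16 weeks a single cluster led in both chondrocyte and PMSC markers. It was clustered again alone (10 dimensions, resolution 0.14), which split it into the chondrocyte-like and the PMSC-like class. Of the BMSC-like cells at 16 weeks, 2374 came from a cluster with 4 BMSC markers raised but 0 among its 10 leading genes. Ccl9 and Ccl2 led those genes. Without integration of the libraries, only 2 of the Osx-Cre cells were PMSC-like and no 16-week cluster was, and the PMSC-like class is therefore uncertain in these 3 libraries. The chondrocyte-like class then grew from 60 to 124 cells in control and from 21 to 52 in CKO at 16 weeks, with HoxC at 338 and 299.8 CPM and 1 HoxB UMI in each. A 16-week erythroid-like cluster of 54 control and 42 CKO cells was taken as the background, since such a class should lack limb Hox genes. It gave 156 CPM [90.8 to 250] and 168 CPM [94.1 to 277] for all Hox genes together. Of this, HoxA made up 101 and 123 CPM, HoxC 55.0 and 44.9 and HoxB 0. The sort excluded Ter119+ cells, so what this cluster held, and its use as a background, were not tested. No doublet caller was run.

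The clusters were used unequally by these 4 classes. Among them, HoxC was highest in chondrocyte-like cells, with 192 CPM [143 to 251.5], 204 [167 to 246], 408 [331.5 to 496.5] and 344 [234 to 488.5] in the 4 libraries, against 174, 136, 158 and 145 in BMSC-like, 122, 176, 229 and 237 in PMSC-like and 94.2, 101, 175 and 168.5 in OB-like cells. HoxA was highest of the 4 in BMSC-like cells, with 279 CPM [234 to 329], 271 [229 to 319], 289 [269 to 310] and 296 [276.5 to 316], against 95.9 [62.6 to 140.5], 108 [82.3 to 140], 140 [97 to 196] and 144 [76.8 to 247] in chondrocyte-like cells. The HoxA intervals of these classes did not overlap in any of the 4 libraries, with BMSC-like cells the higher. The HoxC intervals of the same 2 classes did not overlap at 16 weeks, with chondrocyte-like cells the higher, and overlapped at 8 weeks. The HoxC interval of chondrocyte-like cells also overlapped that of PMSC-like cells in the CKO library [126 to 406] and both 8-week libraries, and that of OB-like cells in the Osx-Cre library. A pericyte-like cluster of 16 to 32 cells a library, left out of this ranking, had HoxA at 128, 63.1, 359 [164 to 682] and 163 CPM and HoxC at 192, 189, 359 [164 to 682] and 256, from 1 to 9 and 3 to 11 UMIs. Its HoxA intervals overlapped those of BMSC-like cells and its HoxC intervals those of chondrocyte-like cells in every library. At 16 weeks the HoxA intervals of chondrocyte-like, OB-like and PMSC-like cells overlapped those of the erythroid-like cells. HoxD was at or under 31.6 CPM in every class.

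Hoxc8 had its highest value of the 4 classes in chondrocyte-like cells in every library. It was at 55.3 CPM [30.96 to 91.2] (15 UMIs), 59.8 [40.9 to 84.4] (32 UMIs), 169 [121 to 229] (41 UMIs) and 88.8 [38.3 to 175] (8 UMIs) in chondrocyte-like cells. BMSC-like cells had 30.1, 3.72, 16.3 and 19.0 CPM, PMSC-like cells 22.1, 22.6, 52.3 and 18.3 from 1 to 8 UMIs, and OB-like cells 6.28, 13.2, 34.4 and 19.6. In the erythroid-like cells of the 16-week libraries it was 9.17 and 22.4 CPM, from 1 and 2 UMIs. The chondrocyte-like interval lay above those of all 3 other classes in the 16-week control library alone. It overlapped that of BMSC-like cells in the Osx-Cre library [16.8 to 49.6], those of OB-like cells in the Osx-Cre and the CKO library, and those of PMSC-like cells in the Osx-Cre, the Prx1-Cre and the CKO library. Hoxc10 was at 51.6, 69.1, 124 and 77.7 CPM in chondrocyte-like and 42.1, 39.03, 43.7 and 35.9 in BMSC-like cells. Hoxa10, the Hox gene with most UMIs overall (64, 113, 271 and 304), went the other way, at 29.5, 48.6, 45.3 and 33.3 against 86.2, 115, 82.4 and 95.9 CPM. In CKO chondrocyte-like cells, where 8 UMIs gave 88.8 CPM, Hoxc10 and Hoxa10 each rested on fewer UMIs. Intervals of these 2 genes were not compared between the classes.

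**Figure D5:**
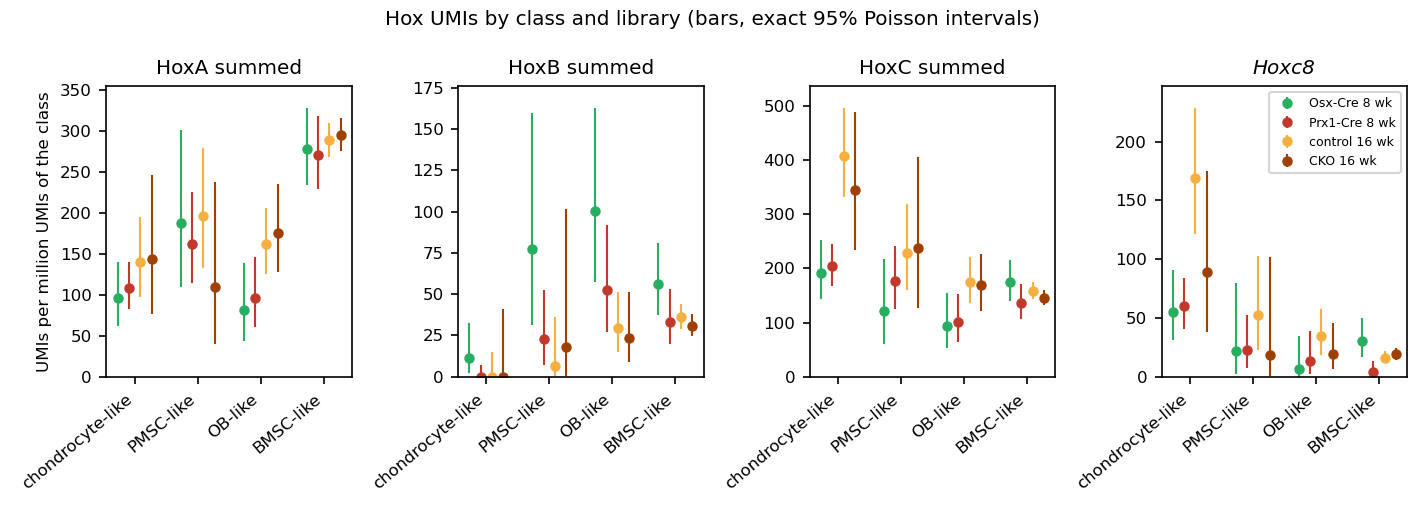
Summed HoxA, HoxB and HoxC and the gene Hoxc8 in CPM of UMIs (y axis) by marker-named class (x axis) in the 4 scRNA-seq libraries, with exact 95% Poisson intervals. Of the 4 classes, HoxC and Hoxc8 are highest in chondrocyte-like cells and HoxA in BMSC-like cells, and HoxB is at 0 in the chondrocyte-like cells of 3 of 4 libraries.

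HoxB was sparse in chondrocyte-like cells, with 3 UMIs (11.1 CPM [2.28 to 32.3]) in the Osx-Cre library and 0 in the other 3, which allows up to 6.89 CPM in the Prx1-Cre, 15.2 in the control and 40.9 in the CKO library. BMSC-like cells held 28, 18, 95 and 91 HoxB UMIs (56.1, 33.5, 36.1 and 30.8 CPM). OB-like cells held 16, 12, 12 and 6 (100.4 CPM [57.4 to 163], 52.8, 29.5 and 23.5), of which Hoxb2 made up 14, 12, 10 and 4. PMSC-like cells held 7, 5, 1 and 1, too few to place.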

How the data were processed

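The authors aligned RNA-seq and ATAC-seq reads to mm10 (STAR and HTSeq counts; Bowtie2, duplicate removal and MACS2 peaks, q 0.05, no control) and deposited raw counts per gene and peaks per library. The deposited peak files give the pileup (coverage signal at the summit), fold enrichment and −log10 p and q values; the pileup was divided by the tags in the file headers. The deposited scRNA-seq values are UMI counts per gene and cell from Cell Ranger (mm10). Versions that are missing are not given in the sources used here.

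RNA counts were tested with edgeR 4.0.16 (filterByExpr, TMM, quasi-likelihood, all 8 samples in a model of 4 groups) and DESeq2 1.42.0, adjusted over all genes by Benjamini-Hochberg. CPM of bulk RNA used library totals scaled by TMM, and CPM of single cells the summed UMIs of the class. Same-numbered libraries deviated together from their group means (r 0.549 to 0.611 in 12 of 12 pairs), and a replicate block was an alternative. Since replicates 2 and 3 were near-identical, these r values largely restate how replicate 1 differed from both. They cannot show that numbers 2 and 3 pair libraries. ATAC measures per cluster were compared over libraries by exact permutation within genotype, and overlapping peaks of the libraries were merged into regions. Single cells were clustered with Seurat 5.3.0 (cells with at least 200 genes, genes in at least 3 cells). A cluster took a class name from at least 3 raised markers with no other class having as many in its top 10 genes, a rule set after the clusters were seen.

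Some genes of the lists are not reported here. The Hox genes and gene lists were chosen with earlier results of these data known. Genes named with all values had a group mean of at least 10 CPM or passed the test. Counts of genes or regions with no overlap over both genotypes were added after the data were seen.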

Additional observations from a re-analysis of the deposited data

Results flagged for a closer look

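The number of ATAC-seq peaks in HoxA differed in opposite directions in the genotypes. In control, gpSSPCs held 27 to 29 peaks and pSSPCs 18 to 24, a mean difference of 7, and in CKO gpSSPCs held 23 to 24 and pSSPCs 26 to 30, a mean difference of -5. The difference between the genotypes was not tested. HoxA was the cluster in which groups without overlap in either genotype differed in opposite directions, and the mean difference also changed sign, with overlap in CKO, in HoxC (5.33 and -2.33) and HoxD (7 and -1.33). With the 59209 strongest peaks of every library the HoxA difference was -0.33 in control and 0.67 in CKO. Per 10000 peaks of the library the HoxA difference was -0.10 in control and -0.27 in CKO.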

How the results depend on the processing

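Counting each RNA library as a sample raised the Hox genes called from 0 to 1 in each genotype, and adding the replicate block to that from 0 to 2 in each (Hoxc8 with Hoxa5 at 2.202 in control and with Hoxa6 at -4.26 in CKO, log2). With the replicate block alone, no filter on low counts, DESeq2, or any 1 library left out, 0 Hox genes were called. The ATAC-seq libraries were not analysed as pairs; 6 pairs allow no exact two-sided p below 0.0312. Using 59209 peaks in every library, the gpSSPC minus pSSPC difference changed sign for HoxA covered bases (163.7 to -92.3), HoxA and HoxC peaks per 10000 (both 0.0282, from -0.188 and -0.0901) and HoxC peak height (0.396 to -2.29). At −log10 q of at least 5 it changed sign for HoxA peaks per 10000 (0.00362) and HoxC height (-0.556). None of these passed the test, and HoxB kept its adjusted p at or under 0.04. With 1 library left out, differences ran from -665 to 1219 (HoxA covered bases), -0.3 to 2.1 (HoxA peaks), -4.89 to 4.43 (HoxA height), -855 to 929 (HoxC covered bases), -3.55 to 6.30 (HoxC height), -3796 to -2227 (HoxB covered bases), -8.87 to -6.47 (HoxB peaks), -1.15 to -0.918 (HoxB per 10000) and -7.56 to -6.17 (HoxB height). With equal peak numbers 80 Hox regions of 122310 in all were left (from 115 of 176624), and Hox regions called fell from 9 to 4 (gpSSPC, control; 5% of Hox and 11.7% of all regions) and 9 to 1 (pSSPC, CKO; 1.25% and 10.8%), rose from 4 to 6 (pSSPC, control; 7.5% and 10.1%), and fell from 2 to 0 (control gpSSPC over CKO; 0% and 0.351%) and 3 to 1 (CKO pSSPC over control; 1.25% and 1.5%), and rose from 0 to 1 (control pSSPC over CKO; 1.25% and 0.661%). With peaks that covered at least 50% of a region they fell from 4 to 2 (pSSPC, control; 1.74% and 4.54%) and 9 to 5 (pSSPC, CKO; 4.35% and 9.96%) and rose from 0 to 1 (control pSSPC over CKO; 0.87% and 0.0917%). Of regions with a peak in all 6 gpSSPC and no pSSPC libraries, 5 became 6 (50% covered) and 4 (equal peak numbers); of regions with a peak in all 6 pSSPC and no gpSSPC libraries, 1 became 0 under both; of start sites, 2 became 0 within 250 bases. In scRNA-seq at resolution 0.5 the BMSC-like class of the 16-week libraries shrank from 1662 to 290 cells in control and from 2048 to 376 in CKO (median 832 and 775 UMIs), while 1363 and 1657 cells had no name, so the values are of different cells; BMSC-like HoxB was 21.96 CPM in CKO (from 30.8) and 53.5 in control (from 36.1), and Hoxc8 42.0 in control (from 16.3); in the few Osx-Cre PMSC-like cells HoxB and Hoxc8 fell to 0 there and, with HoxC, without integration. The cause was not tested for any of these.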
